A study of Rattus norvegicus with 6 samples.

Results

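The fatty acid binding protein (Fabp) family was examined in mRNA of cortical neural progenitors of the rat. Its members were taken by gene symbol from a fixed list of 8 names, *Fabp1*, *Fabp2*, *Fabp3*, *Fabp4*, *Fabp5*, *Fabp6*, *Fabp7* and *Fabp9*, and all 8 were found among the 17337 gene names of the deposited tables, each at 1 locus. The family was chosen with its levels and the share of *Fabp7* in them known, so these are given as a description, with no test. The mRNA came from cortices of Sprague Dawley rats at embryonic day 14, grown as progenitor cultures, with no treatment named, with a neural supplement, bFGF and EGF and collected after the second passage. PolyA-selected RNA of 2 biological replicates was sequenced. Replicate A gave the technical libraries A1 and A2, and B1 and B2 came from replicate B. There is 1 condition, and the embryos were of either sex. No source used here says how many embryos went into a culture. The 2 Start-seq samples of the study were not analysed here.

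Fabps are small cytosolic proteins that hold a fatty acid or another hydrophobic ligand inside a beta-barrel and carry it between membranes, enzymes and the nucleus. Each is best known from a tissue, such as liver for *Fabp1*, intestine for *Fabp2*, heart and skeletal muscle for *Fabp3*, fat for *Fabp4*, skin for *Fabp5*, ileum for *Fabp6*, brain for *Fabp7* and testis for *Fabp9*. In the developing cortex *Fabp7*, also called brain lipid binding protein, is a classic marker of radial glia, the progenitors that line the ventricle, and it binds long polyunsaturated fatty acids such as docosahexaenoic acid.

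Levels are given as FPKM, a fragment count divided by transcript length and by the size of the library, so that different genes can be set side by side. Means and SDs are over replicates A and B after averaging the technical libraries (n = 2). All 10 radial glia markers examined had a mean above 1 FPKM, from 2.75 to 3291 FPKM. Of the 17337 gene names, 10481 reached 1 FPKM in the mean, as did all 7 astroglia and all 8 neuronal markers examined. Passing this level therefore does not tell these cell types apart and cannot decide on the label of the cells. The 10 markers of mesenchyme and meninges were also above 1 FPKM in the mean, from 7.02 to 486 FPKM. B2 was the shallowest library, with a coverage of 6.83 reads per base for 1 FPKM against 22.7 to 24.4 in the other libraries, which is 28.1% of the depth of B1. Values of low genes in B2 rest on few reads.

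The promoters of 5 of the 8 members were matched by symbol in RefSeq, build GRCr8, and are shown because the members they belong to span the whole range of mRNA levels described here, from the highest gene of the tables to a gene listed at 0 in every library. The bases just before the annotated start are printed 5′ to 3′ on the strand of the gene, and capitals mark the longest run of only A and T between 60 and 16 bases before the start, where a TATA box would lie. For *Fabp7* all 250 bases before the start are given, at chr20:37669356-37669605, plus strand. For the other members the last 100 bases are given, at chr5:147936025-147936124 (*Fabp3*), chr2:213724529-213724628 (*Fabp2*), chr4:104749240-104749339 (*Fabp1*), all on the plus strand, and chr10:28569728-28569827 on the minus strand (*Fabp6*).
Fabp7: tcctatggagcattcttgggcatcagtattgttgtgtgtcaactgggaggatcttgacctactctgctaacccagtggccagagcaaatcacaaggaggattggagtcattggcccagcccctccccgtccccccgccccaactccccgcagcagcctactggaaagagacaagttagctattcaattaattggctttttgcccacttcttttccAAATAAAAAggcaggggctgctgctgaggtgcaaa
Fabp3: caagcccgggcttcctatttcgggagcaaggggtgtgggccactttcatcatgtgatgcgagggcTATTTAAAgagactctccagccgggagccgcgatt
Fabp2: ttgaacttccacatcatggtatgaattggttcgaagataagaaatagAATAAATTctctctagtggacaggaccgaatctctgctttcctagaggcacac
Fabp1: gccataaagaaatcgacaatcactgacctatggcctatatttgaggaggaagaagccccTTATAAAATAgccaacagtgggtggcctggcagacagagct
Fabp6: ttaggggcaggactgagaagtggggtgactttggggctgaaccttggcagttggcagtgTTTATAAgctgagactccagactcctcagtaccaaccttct

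In each of the 5 promoters the marked run held 7 bases or more. The run of *Fabp7* had 9 bases and lay from 35 to 27 bases before the start, and a run at least as long stands in this window in 6.66% of the 33469 promoters of the RefSeq table. That of *Fabp3* had 8 bases, from 35 to 28 bases before the start (10.5% of promoters), and that of *Fabp1* had 10, from 41 to 32 bases before it (4.52%). *Fabp6* had a run of 7 bases (16.1%). The run of *Fabp2*, of 8 bases, lay farther out, from 53 to 46 bases before the start. This window was chosen after the sequences were seen. All distances rest on starts annotated in RefSeq. For many genes the paper placed the start at another base than the one annotated in rn6, so the distances are uncertain.

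Over the 250 bases before the start, the letters TATAAA, searched on both strands, were found in *Fabp1* and *Fabp6*, and in 12.9% of all promoters. They can overlap the marked run. CCAAT, on either strand, was found in *Fabp1*, *Fabp2* and *Fabp7* and in 34.0% of promoters, and GGGCGG in *Fabp7* alone and in 30.5% of promoters. *Fabp3* had the highest G and C content of the 5, 65.6%, with 21 CG dinucleotides, against a median of 51.2% and 5 over all promoters. *Fabp7* had 51.6% and 3 CG dinucleotides, and the remaining members had 40.4% to 52.0% and 2 or 3 CG dinucleotides. The member with the highest mRNA level therefore had the base composition of a typical promoter of the table and fewer CG dinucleotides than the median.

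*Fabp7* occupies bases 40769624 to 40773156 on the plus strand of chromosome 20 in rn6. Its mRNA stood at 16799.7 and 18557 FPKM in A1 and A2, with 6519.6 and 5485 in B1 and B2. Both libraries of A were far above both libraries of B, and technical libraries were closer to each other than to those of the other replicate. The mean was 11840.5 ± 8256 FPKM (SD, n = 2). *Fabp7* held rank 1 in each library, which was known when the family was chosen and is given as a description. The gene next in order was *Tmsb4x* in A1, A2 and B1 and *Mt3* in B2, and the level of *Fabp7* over that gene was 2.21 in A1 and 2.15 in A2 but 1.08 in B1 and 1.07 in B2. Its lead over the next gene was thus large in replicate A and narrow in replicate B. Of all transcripts counted as TPM, *Fabp7* made up 2.95% and 3.09% in A1 and A2, with 1.07% and 0.913% in B1 and B2.

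*Fabp5*, which binds fatty acids and retinoic acid and is found in many growing cell types beside skin, lies on the minus strand of chromosome 2 from 93981662 to 93985319. Its level was 911 and 1024 FPKM in A1 and A2, with 782 and 703 in B1 and B2. Replicate A was higher and the groups did not overlap, but the span of all 4 libraries was narrow beside that of *Fabp7*. The mean was 855 ± 159 FPKM (SD, n = 2), at rank 108 of the gene names, and the rank in single libraries ranged from 77 to 136. RefSeq names 2 pseudogenes of *Fabp5*, and how reads shared with such copies were counted is not given in the sources used here, so its level is uncertain to that extent.

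*Fabp3*, the carrier of heart and skeletal muscle, occupies bases 148528869 to 148535597 of chromosome 5, plus strand. Its level was 9.04 and 9.63 FPKM in A1 and A2, with 5.83 and 8.44 in B1 and B2. The libraries of A were above those of B, with B2 close below A1. The mean was 8.23 ± 1.55 FPKM (SD, n = 2), at rank 7121. The last 79 bases of *Fabp3* are shared with *Zcchc17* on the opposite strand, which had 36.4 ± 5.52 FPKM (SD, n = 2), and whether counting used the strand is not given in the sources used here, so reads of that stretch may belong to either gene. Of 6 heart and skeletal muscle markers 4 had a mean below 1 FPKM, and *Myl2* was listed at 0 in every library. *Myh6*, a heart myosin, had 2.95 and 1.73 FPKM in A1 and A2, with 0.877 and 0.418 in B1 and B2. *Tnni3*, the other marker above 1 FPKM, had 1.65, 1.26, 1.08 and 1.74 FPKM in the same order, so its libraries overlapped. The part of muscle cells in the level of *Fabp3* was not tested.

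The remaining members were low or listed at 0. *Fabp4*, the carrier of fat cells that is also made by endothelium and macrophages, had 0.377 and 0.394 FPKM in A1 and A2, with 0.908 and 0.156 in B1 and B2. B1 and B2 lay on either side of replicate A, and the value of B2 rests on a coverage of 1.06 reads per base. Its mean was 0.459 ± 0.104 FPKM (SD, n = 2). *Fabp2*, the intestinal member, had 0.0601 and 0.103 FPKM in A1 and A2 and 0.129 FPKM in B1, and was listed at 0 in B2. *Fabp6*, which binds bile acids in the ileum, was above 0 in A2 only, at 0.0183 FPKM and a coverage of 0.416. *Fabp1* and *Fabp9*, the liver and testis members, were listed at 0 in all 4 libraries. A value listed as 0 is no proof of silence.

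Markers of the tissues that these low members are known from were mostly low as well. Of the 17337 gene names 10481 reached 1 FPKM in the mean, so a mean below 1 FPKM is common. Of 6 fat cell markers 5 had a mean below 1 FPKM, with *Adipoq* at 0.0374 FPKM, and the exception was *Lipe*, a lipase also used by other cells, at 3.15 FPKM. All 7 endothelial markers were below 1 FPKM, with a highest mean of 0.381 FPKM. All 5 markers of male germ cells were below 1 FPKM, and 3 of them, *Prm1* and *Tnp1* included, were at 0 in every library. Of the 7 enterocyte and hepatocyte markers 5 were below 1 FPKM, including *Alb* at 0.679 and *Apoa4* at 0.0152 FPKM. The exceptions were *Apoa1*, at 1.64 FPKM, and *Ttr*, which choroid plexus also makes, at 48.2 ± 47.3 FPKM (SD, n = 2). The part of such cells in the levels of *Fabp1*, *Fabp2*, *Fabp4* and *Fabp9* was not tested.

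**Figure D1:**
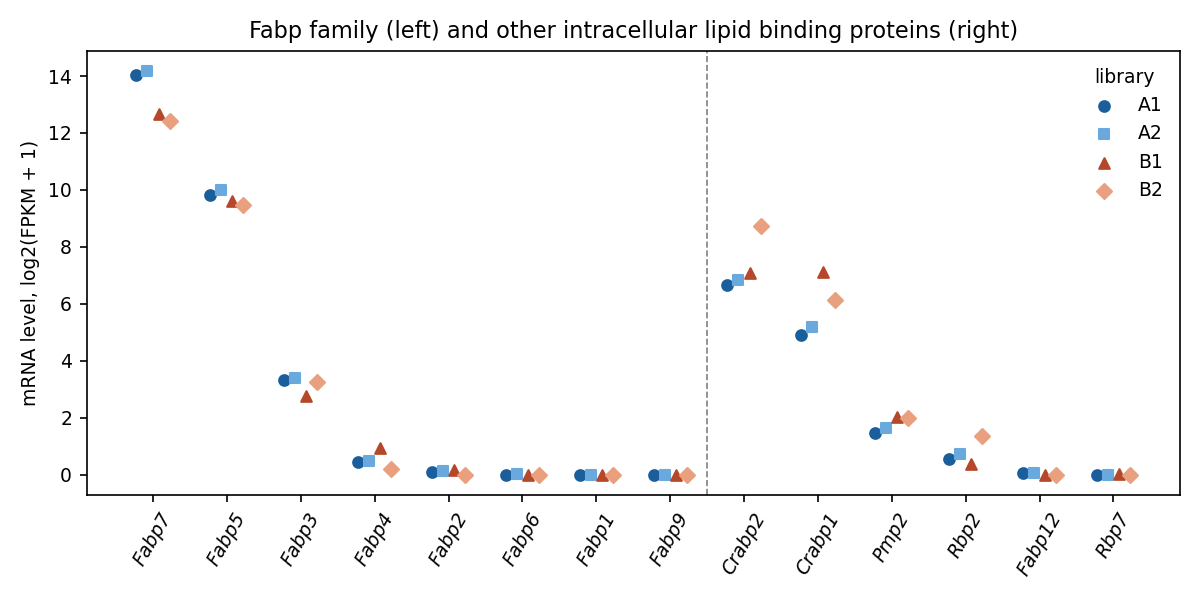
The vertical axis is the mRNA level as log2(FPKM + 1) of the 8 Fabp family members (left of the dashed line) and of 6 other intracellular lipid binding proteins (right), with 1 point for each library of replicates A (A1, A2) and B (B1, B2). *Fabp7*, *Fabp5* and *Fabp3* are well above 0 and the other members are at or near 0. *Fabp7* is higher in both libraries of A, whereas *Crabp2* and *Crabp1* are higher in both libraries of B.

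By mean level the order was *Fabp7*, *Fabp5*, *Fabp3*, *Fabp4*, *Fabp2* and *Fabp6*, with *Fabp1* and *Fabp9* at 0. The first 4 kept their order in every library, with no overlap between any of them. *Fabp4* and *Fabp2* did not overlap either, since the lowest *Fabp4* value, 0.156 FPKM, was above the highest *Fabp2* value, 0.129 FPKM, by a margin smaller than the spread of *Fabp4*. Of the 8 members 6 were above 0 in at least 1 library, 4 in every library, and 3 reached 1 FPKM in the mean. Those 3 are the members that entered the count of differing genes given here, and the other 5 did not.

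*Fabp7* made up 94.8% and 94.7% of the family's summed FPKM in A1 and A2, with 89.2% and 88.5% in B1 and B2. The mean share was 91.8 ± 4.17% (SD, n = 2), and the shares of technical libraries differed far less than those of the replicates. *Fabp5* supplied nearly all of the rest, 5.18% in replicate A and 11.0% in replicate B, and *Fabp3* 0.0501% and 0.108%. The family as a whole accounted for 3.11% and 3.26% of all FPKM in A1 and A2, with 1.19% and 1.03% in B1 and B2. The ratio of *Fabp7* to *Fabp5* within a library, which does not depend on how libraries are scaled, was 18.4 and 18.1 in A1 and A2, with 8.34 and 7.80 in B1 and B2. Relative to *Fabp5*, *Fabp7* was therefore more than 2-fold higher in replicate A.

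**Figure D2:**
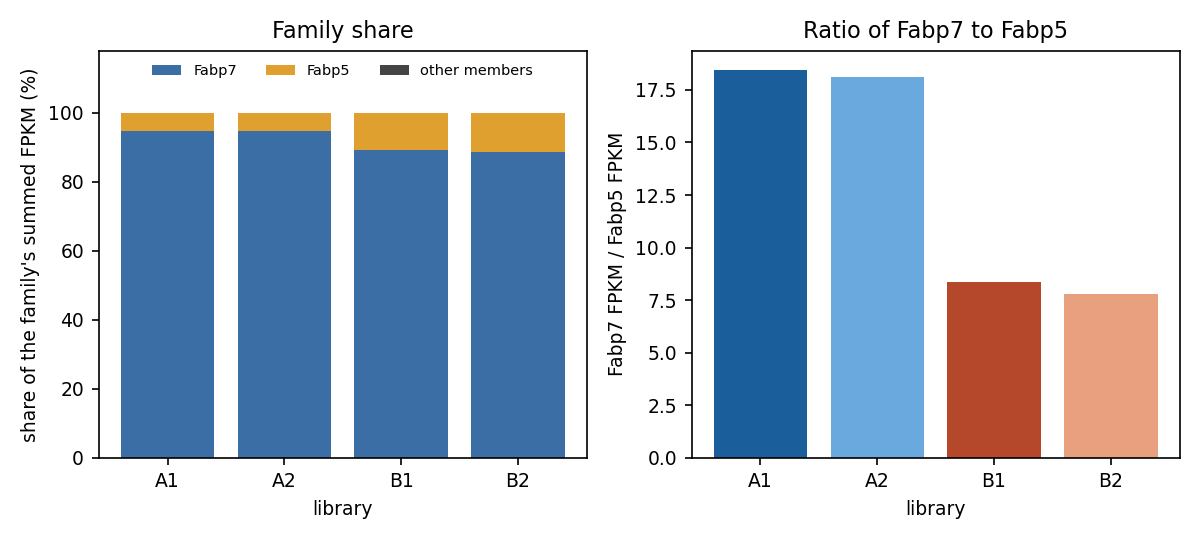
The left panel stacks the share of *Fabp7*, *Fabp5* and the other members in the family's summed FPKM, in percent, for each library, and the right panel shows the ratio of *Fabp7* FPKM to *Fabp5* FPKM. *Fabp7* holds 88.5% to 94.8% of the family, the other members beside *Fabp5* are too small to see, and the ratio is 18.4 and 18.1 in A1 and A2 against 8.34 and 7.80 in B1 and B2.

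The replicate means of *Fabp7* were 17678.5 FPKM for A and 6003 FPKM for B, a ratio of 2.95, or 1.56 on the log2(FPKM + 1) scale, on which differences of low genes are understated. For *Fabp5* the ratio of A to B was 1.30 and the log2 difference 0.38, and for *Fabp3* 1.31 and 0.35. The log2 difference of *Fabp3* depended on single libraries, with 0.13 when B1 was left out and 0.60 when B2 was left out. A gene was counted as differing between the replicates if its mean reached 1 FPKM, its log2 difference reached 1 and its A and B libraries did not overlap. Of 10481 genes compared, 149 (1.42%) were counted as higher in A and 501 (4.78%) as higher in B. Among the 3 members compared, *Fabp7* was counted as higher in A, and *Fabp5* and *Fabp3* were not counted. With the log2 difference lowered to 0.58, 6.95% of genes were higher in A and 9.51% in B, and *Fabp7* was still the only member counted. With no limit on size, the libraries of A and B did not overlap for 60.1% of genes, 32% with A higher and 28.1% with B higher, so the absence of overlap for *Fabp5* and *Fabp3* is a common outcome. The median log2 difference was 0.38 for the 3 members (0.60 without B2) and 0.03 for all genes compared. With 1 culture on each side no test between A and B is possible, and in RNA from whole cultures fewer cells of a type and less RNA per cell cannot be told apart.

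Among the 6636 genes whose mean reached 10 FPKM, 12 had a larger log2 difference in favour of A than *Fabp7*, and 124 had a larger one in favour of B. Of the 85 genes whose mean reached 1000 FPKM, *Fabp7* alone was counted as higher in A, and *Lgals1*, which encodes the secreted lectin galectin-1, alone as higher in B. Over all genes compared the shares were 1.42% and 4.78%. Its level over that of *Slc1a3*, a glutamate transporter of radial glia and astrocytes, was 94.2 and 96.7 in A1 and A2, with 37.4 and 25.7 in B1 and B2. Over *Sox2*, a transcription factor of neural progenitors, it was 30.1, 31.4, 16.1 and 15.4 in the same order.

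The genes whose pattern over the 4 libraries was most like that of *Fabp7* were taken by the smallest Euclidean distance between log2(FPKM + 1) values, each centred on the mean of the gene, among the 6635 other genes whose mean reached 10 FPKM. They were *Arap2*, *S1pr1*, *Fxyd3*, *Stambpl1* and *Sat1*, at distances from 0.0792 to 0.209. *Arap2*, which encodes a regulator of small GTPases, had 22.2 and 24.8 FPKM in A1 and A2, with 8.18 and 6.19 in B1 and B2. *S1pr1*, a receptor for sphingosine 1-phosphate, had 147, 158, 50.0 and 42.4 FPKM. Both were lower in each library of B, at a small part of the level of *Fabp7*. The genes most like *Fabp5* were *Pxmp4*, *Gtdc1*, *Ndufaf3*, *Srfbp1* and *Cebpg*, at distances from 0.0339 to 0.0428, with log2 differences between A and B from 0.35 to 0.41.

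*Fabp5* sits in a genomic cluster of the family. In rn6 the genes *Fabp12*, *Fabp4*, *Fabp9*, *Pmp2* and *Fabp5* lie in this order within 234 kb of chromosome 2, the first 4 on the plus strand and *Fabp5* on the minus strand, 150 kb beyond *Pmp2*. *Pmp2*, the family gene of peripheral myelin, had 1.77 and 2.14 FPKM in A1 and A2, with 3.09 and 2.97 in B1 and B2, and *Fabp12* was above 0 in replicate A only, at 0.0324 and 0.0353 FPKM. Of the 5 clustered genes *Fabp5* was the highest in every library, at 703 FPKM or more, and no other gene of the cluster passed 3.09 FPKM. Outside the cluster but within 500 kb of *Fabp5*, the highest gene was *Impa1*, an enzyme of inositol metabolism, with a mean of 23.4 ± 3.09 FPKM (SD, n = 2). Of the 10 genes of this region, the cluster included, 4 were compared and none was counted as differing between A and B, where 6.2% of all genes were.

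No other member lies on chromosome 20 with *Fabp7*. Its surroundings, within 500 kb, hold 8 genes with *Fabp7* itself, among them *Smpdl3a*, a sphingomyelinase-like phosphodiesterase that starts 5866 bp beyond the end of *Fabp7* on the same strand. *Smpdl3a* had 7.59 and 7.21 FPKM in A1 and A2, with 2.03 and 1.73 in B1 and B2, a mean of 4.64 ± 3.90 FPKM (SD, n = 2). Like *Fabp7* it was higher in both libraries of A, with a ratio of A to B of 3.93 against 2.95 for *Fabp7*. *Pkib*, an inhibitor of protein kinase A that ends 57.0 kb before *Fabp7*, had 0.855, 0.855, 0.178 and 0.0879 FPKM in A1, A2, B1 and B2, below the level at which genes were compared. *Frk*, a tyrosine kinase near the far edge of the region, went the other way, with 0.480, 0.426, 2.69 and 2.47 FPKM. Of the 6 genes of the region that were compared, *Fabp7* and *Smpdl3a* were counted as higher in A and *Frk* as higher in B, against 1.42% and 4.78% of all genes. *Fabp7* itself is among these 6, and the others were chosen by position.

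**Figure D3:**
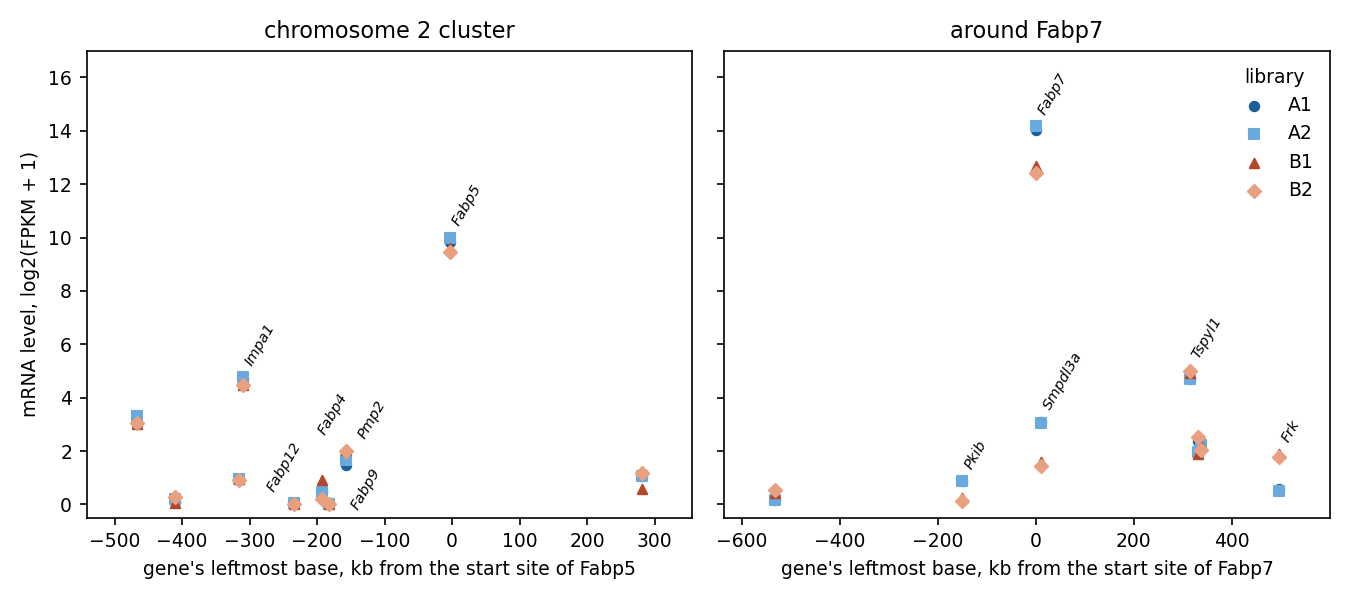
Both panels plot the mRNA level as log2(FPKM + 1), 1 point per library, against the distance in kb of the leftmost base of each gene from the start site of *Fabp5* (left) or *Fabp7* (right), for genes within 500 kb. *Fabp5* stands far above its cluster neighbours *Fabp12*, *Fabp4*, *Fabp9* and *Pmp2*, and *Smpdl3a*, the gene next to *Fabp7*, is higher in A1 and A2 than in B1 and B2, as is *Fabp7*.

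The Fabps belong to a wider family of intracellular lipid binding proteins that includes the carriers of retinoids. Of 7 such relatives examined 6 were found. They include *Fabp12* and *Pmp2*, genes of the Fabp cluster that were not on the list of members. Of the 6 found, 3 reached 1 FPKM in the mean, *Crabp1*, *Crabp2* and *Pmp2*. All 3 were higher in both libraries of B (28.1% of all genes were). Counted as higher in B were *Crabp1* and *Crabp2* (2 of 3, against 4.78% of all genes), and 0 were counted as higher in A. The median log2 difference of the 3 was -1.39, the value of *Crabp2*. Without B2 it was -0.47, the value of *Pmp2*, itself a gene of the Fabp family. Both medians were opposite in sign to that of the listed Fabp members compared. Since *Pmp2* was also higher in B, this contrast holds for the listed members and not for every gene of the Fabp family.

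*Crabp2*, which delivers retinoic acid to its nuclear receptor, had 100.2 and 112 FPKM in A1 and A2, with 135 and 426 in B1 and B2. *Crabp1*, which holds retinoic acid in the cytosol, had 29.1, 35.8, 139 and 70.1 FPKM in the same order. Both were higher in replicate B, but the highest library was B1 for *Crabp1* and B2 for *Crabp2*. Without B2, *Crabp1* was still counted, at a log2 difference of -2.06, while *Crabp2*, at -0.35, was not. *Pmp2* was at -0.45 with all libraries and -0.47 without B2. *Fabp7* was thus higher in A, and these carriers of retinoic acid higher in B.

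Genes that bring fatty acids in, activate them or buffer them as acyl-CoA were next examined. Of 16 such genes 12 were compared and 0 were counted as differing in either direction, where 6.2% of all genes were, so the count does not set them apart, with a median log2 difference of 0.04, or -0.04 without B2, against 0.03 for all genes. The highest was *Dbi*, the acyl-CoA binding protein, with 1962 and 2250 FPKM in A1 and A2 and 1472 and 1093 in B1 and B2. *Dbi* was higher in both libraries of A, at a log2 difference of 0.71, under the size at which genes were counted. *Slc27a1*, a fatty acid transport protein, had a mean of 113 ± 29.9 FPKM and *Acsbg1*, an acyl-CoA synthetase of brain, 126 ± 27.9 FPKM (SD, n = 2). *Cd36*, the fatty acid translocase of fat and muscle, had a mean of 0.0280 FPKM.

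The nuclear receptors to which Fabps are known to pass ligands differed widely in level. *Ppard*, the partner known for *Fabp5*, had 14.4 and 13.1 FPKM in A1 and A2, with 15.6 and 18.7 in B1 and B2, while *Ppara*, the partner known for *Fabp1*, had 1.17, 0.954, 0.634 and 0.839 FPKM. *Pparg*, the partner known for *Fabp4*, was between 0 and 0.0393 FPKM. *Ppard* was the highest of the 3 in every library. Of 8 lipid-sensing receptors 4 were compared and 0 were counted as differing, too few to set against the 6.2% of all genes.

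Among the enzymes that burn fatty acids, 17 of 18 were compared and 0 were counted as differing, where 6.2% of all genes were, so the count does not set them apart. Libraries of A and B did not overlap for 4 of the 17, against 60.1% of all genes, but without B2 this was so for 12 of the 17, against 84.1% of all genes, since leaving out a library lowers the overlap of any genes. The median log2 difference was 0.09. *Hadha*, a subunit of the mitochondrial trifunctional protein, had 128 and 138 FPKM in A1 and A2, with 137 and 134 in B1 and B2. Among 10 desaturases and elongases compared, 0 were counted as higher in A and 1 as higher in B, *Fads3*, with a log2 difference of -1.12, or -0.59 without B2. *Scd2*, the main stearoyl-CoA desaturase of brain, was the highest of that list, with a mean of 581 ± 107 FPKM (SD, n = 2).

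Among 7 genes of lipid droplets and lipolysis compared, 1 was counted, as higher in B. This was *Plin2*, a protein that coats lipid droplets, with 8.07 and 8.37 FPKM in A1 and A2 and 22.7 and 28.6 in B1 and B2. Its libraries in B were about 3 times those in A, a log2 difference of -1.53, or -1.36 without B2. *Lpl*, lipoprotein lipase, had 0.622, 0.569, 2.09 and 1.72 FPKM and a log2 difference of -0.87. Over these lists of lipid genes, the retinoid carriers included, 53 genes were compared, of which 0 were counted as higher in A and 4 as higher in B (2 without B2). The shares over all genes were 1.42% and 4.78%, or 1.82% and 3.67% without B2. With the log2 difference lowered to 0.58, 3 of the 53 were higher in A and 9 higher in B, against 6.95% and 9.51% of all genes.

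Of 12 transcription factors and Notch pathway genes known to act on *Fabp7*, 8 were higher in both libraries of A (32% of all genes were), 1 was higher in both libraries of B (28.1%) and 3 overlapped, with a median log2 difference of 0.33. Counted as higher in A was 1 gene (1.42% of all genes were), *Hes5*, a target of Notch signalling, with 397 and 399.8 FPKM in A1 and A2 and 197 and 162 in B1 and B2, a log2 difference of 1.14. *Pou3f2*, a POU factor, had 57.1, 51.2, 32.6 and 26.7 FPKM and a log2 difference of 0.85, and *Notch1* and *Sox2* had log2 differences of 0.59 each. *Rbpj*, the DNA-binding partner of Notch, was slightly higher in B, at -0.18, or -0.08 without B2. *Pax6*, which activates *Fabp7* in the cortex, had 39.3, 37.01, 22.1 and 37.3 FPKM, so B2 overlapped replicate A. *Hes5*, *Sox2* and *Pax6* are also among the radial glia markers, so *Hes5* is the gene counted in both lists. The part of these factors and Notch pathway genes in the level of *Fabp7* was not tested.

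**Figure D4:**
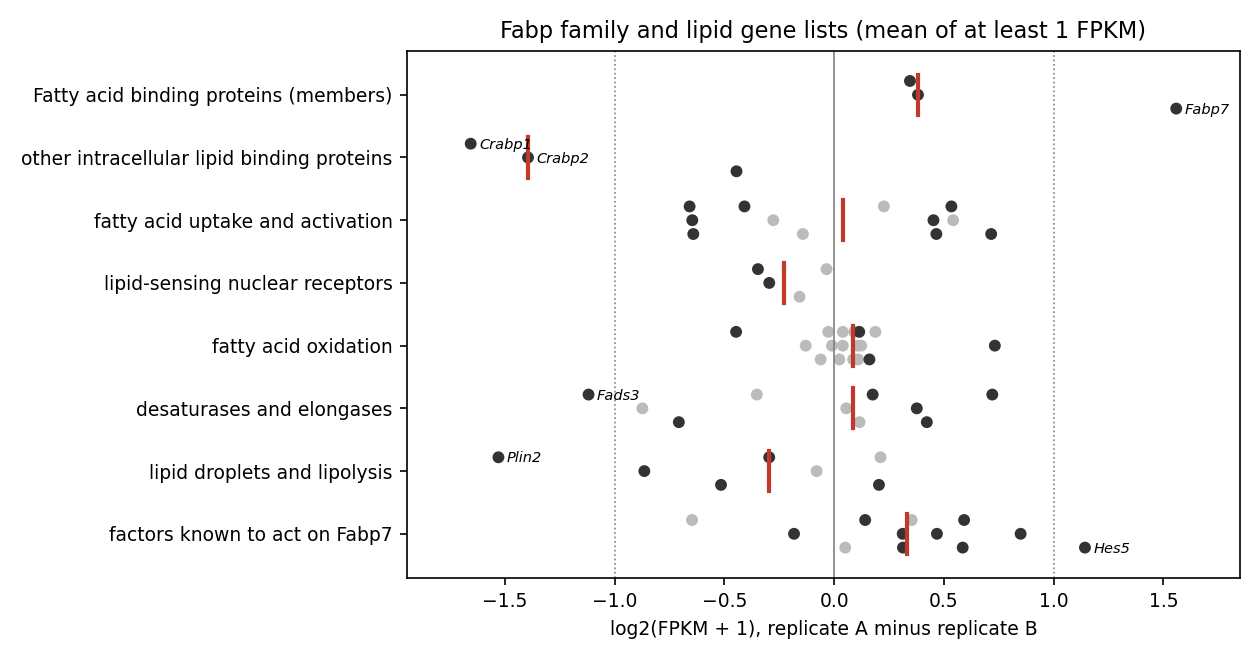
The horizontal axis is the difference in log2(FPKM + 1) of replicate A minus replicate B, with 1 point per gene compared and 1 row per gene list, spread vertically only to keep points apart. Dark points are genes whose libraries do not overlap between A and B, grey points overlap, red bars are medians, dotted lines mark differences of 1, and genes beyond them are named. *Fabp7* is far to the right of the other members, *Crabp1* and *Crabp2* are to the left, and 13 of 17 genes of fatty acid oxidation are drawn as overlapping. Without B2, which is not drawn apart, 12 of these 17 do not overlap, against 84.1% of all genes.

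Markers of other cells also moved between the replicates, beside *Fabp7*. Of 10 markers of mesenchyme and meninges all 10 were higher in both libraries of B (28.1% of all genes were). As higher in B 8 were counted, against 4.78% of all genes, and 8 were also counted without B2, against 3.67%. Their summed level was 677 and 657 FPKM in A1 and A2, with 2506 and 3029 in B1 and B2. *Col1a1*, a collagen of fibroblasts, had a log2 difference of -2.17. The summed level of the radial glia markers was 4539, 4899, 3859.6 and 5573 FPKM in A1, A2, B1 and B2, and most of it was *Vim*. Of the 10 genes 6 overlapped between A and B, 4 were higher in both libraries of A (32% of all genes were) and 0 in both libraries of B (28.1%). The 4 were *Hes5* at 1.14, *Ptprz1* at 0.69 (0.41 without B2), *Sox2* at 0.59 and *Cdh2* at 0.18. Only *Hes5* was counted as higher in A (1.42% of all genes were). Without B2, 8 of 10 were higher in A and did not overlap, against 43.8% of all genes, so the lean to A depended on leaving out B2. B1 and B2 also differed in well-covered markers. *Vim* had 2652 FPKM in B1 and 4458 in B2, at a coverage of 30468 in B2. *Nes* had 28.2 and 55.4 FPKM, at a coverage of 370 in B2, while *Ptprz1* went the other way, with 238 and 155 FPKM. Why these technical libraries differ was not tested.

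Of the other lists, against 1.42% of all genes higher in A and 4.78% higher in B, 0 of 8 neuronal markers were counted in either direction, with a median log2 difference of 0.44. Of the 8, 5 were higher in both libraries of A (32% of all genes were) and 0 in both libraries of B, and without B2 7 were higher in A (43.8%). Of 7 astroglia markers 3 were higher in both libraries of A (32% of all genes were) and 2 in both libraries of B (28.1%). Their median log2 difference was -0.18, or 0.08 without B2. Astroglia markers were not low, with means from 5.90 to 571 FPKM, the highest being *Gfap*. The means of the radial glia markers ranged from 2.75 to 3291 FPKM. Counted as higher in A was *S100b*, a calcium binding protein, at 1.12, or 0.92 and not counted without B2. The gap junction gene *Gja1*, at -0.74 or -0.07 without B2, and the water channel gene *Aqp4*, at -0.18 or -0.27 without B2, were higher in B. Of 5 oligodendrocyte lineage markers compared 2 were counted, as higher in B, *Pdgfra*, which fibroblasts also make, at -2.55 and *Olig1* at -1.05. *Ttr*, made by choroid plexus and liver, went with *Fabp7*, with 80.7 and 82.6 FPKM in A1 and A2, and with 26.4 and 3.03 in B1 and B2. Of 7 microglia and macrophage markers 6 were below 1 FPKM in the mean, and the exception was *Cd68*, at 3.82 FPKM. The part of mesenchymal, choroid plexus or other cells in the difference of *Fabp7* between A and B was not tested.

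**Figure D5:**
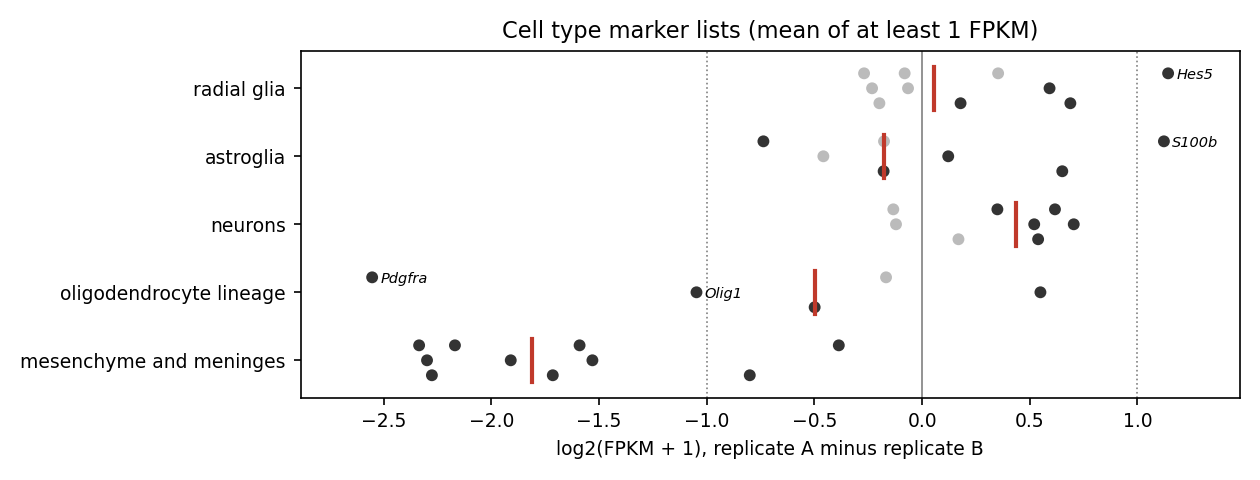
The horizontal axis is the difference in log2(FPKM + 1) of replicate A minus replicate B for compared markers of 5 cell types, with dark points for genes whose libraries do not overlap, grey points for those that overlap, red bars for medians and dotted lines at differences of 1. All 10 mesenchymal and meningeal markers lie left of 0, with a median of -1.81, and radial glia markers lie on both sides of 0, with a median of 0.06 (0.29 without B2).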

How the data were processed

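The authors aligned reads of polyA-selected RNA to rn6 with STAR and deposited, per library, coverage (the average number of reads per base, which grows with library depth), FPKM and TPM for each gene in StringTie's column layout. Per the labels, HISAT and cutadapt were also used, and the study's methods add Rsubread. Tool versions and the annotation release are not given in the sources used here. The deposited FPKM, TPM and coverage values were summed over rows of the same gene name. The members and gene lists were chosen with earlier results of these data known. A gene of the lists is not reported here and was left out of the counts of its list. The text names the 8 members, genes of the lists, their neighbours by position, and the 5 genes most like *Fabp7* and *Fabp5*. No test was made, since there is 1 condition with 2 biological replicates. Genes were counted as differing by rules given in the report (pseudocount 1). Alternatives were TPM, a pseudocount of 0.1, other filters, other scalings and each library or replicate left out. Start-seq samples were not analysed here. Promoter sequences are from RefSeq (GRCr8), while gene positions are those of the tables (rn6). Python 3.11.15, pandas 2.3.3, numpy 2.4.6 and matplotlib 3.10.9 were used.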

Additional observations from a re-analysis of the deposited data

Results flagged for a closer look

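Of 78 values over the 4 mRNA-seq libraries, those of the genes given here with levels and some others of their lists, and of the library and family as a whole, 7 had a single library far from the other 3, by a gap to the nearest library that, as a part of the range, passed Dixon's critical value for 4 samples. Chance gives this for about 1 in 20 groups of independent samples, and the libraries here form technical pairs. *Fabp6* was at 0.0183 FPKM in A2 and at 0 elsewhere. *Rbp7* was at 0.00949 FPKM in B1 and at 0 elsewhere, and *Pparg* was at 0.0393 FPKM in B1 and at 0.00615 FPKM or less in the others. *Crabp2* reached 426 FPKM in B2 against 100.2 to 135 FPKM in the others, so its mean in replicate B rests on 1 library. *Gja1* reached 328 FPKM in B2 and had 138 to 150.1 FPKM in the others. *Pax6* was lowest in B1, at 22.1 FPKM, with up to 39.3 FPKM elsewhere. The coverage for 1 FPKM was 6.83 in B2 and 22.7 to 24.4 in the others.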

How the results depend on the processing

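Of 73 alternatives computed for 15 results, 0 reversed a direction. Only the differences between A and B of *Fabp7*, *Fabp5* and *Fabp3* have a direction. For these 3 genes both libraries of A were above both of B. Leaving out a library or changing the pseudocount could therefore not reverse it. Of the 73 alternatives, 8 leave out replicate A or B from a level or share. With 2 replicates these 8 stay within 1 SD by construction, so they say nothing of stability. The level of *Fabp7* was 6003 or 17678.5 FPKM by the replicate kept. Another 54 stayed within 1 SD or, for counts, within 1.5 times. What moved in the remaining 11 follows, and the cause was not tested. With A1 set against B1 alone the log2 difference was 1.37 for *Fabp7* and 0.22 for *Fabp5*, and 231 genes were higher in A. Genes higher in A numbered 257 with a pseudocount of 0.1 and 86 when the mean had to reach 10 FPKM, where 245 were higher in B. At a log2 difference of at least 0.58, 3 of the 53 other lipid genes were higher in A and 9 in B, against 6.95% and 9.51% of all genes. Without B2, an alternative chosen after the data were seen, 2 were higher in B. With at least 1 FPKM in the mean, 3 members were detected, and 3 with at least 1 FPKM in every library. Leaving out each technical library in turn gave 1.44 to 1.69 for *Fabp7*, 0.30 to 0.46 for *Fabp5* and 0.13 to 0.60 for *Fabp3*. Scaling to the library total without *Fabp7* moved the median of all genes to 0.10 and *Fabp7* to 1.64. No paired analysis was possible because the letters A and B are shared only with Start-seq samples, which were not analysed here. With 2 biological replicates and a shallow B2, differences of genes under 1 FPKM could not be judged.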
